A study of Mus musculus with 4 samples.

Results

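Megakaryocytes are the bone marrow cells that shed platelets, and part of the program that arms platelets is already transcribed at low level in stem cells and multipotent progenitors. The 9 genes described here encode platelet surface glycoproteins (Itga2b, Gp9, Gp1bb, Gp6), a thrombin receptor (F2rl2) and proteins stored in platelet granules or displayed from them (Vwf, Selp, Pf4, Treml1). They were picked by gene symbol, 9 of the 24421 genes in the deposited count table, and all 9 symbols were found there. RNA was sequenced from LSK cells, mouse bone marrow cells that lack lineage markers and carry Kit and Sca-1, a fraction rich in stem cells and early progenitors. The libraries were 2 from Zfp521 knockout mice (KO) and 2 from control littermates, which the labels call wild type (WT). The labels give the knockout genotype as Zfp521-/- without describing the allele or naming any Cre or tissue restriction, and they give no strain, age or treatment for either group. The RNA came from pools of cells and the animals behind each pool are not named, so p-values reflect the spread of these 4 libraries, some of which may be technical.

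In the knockout libraries 4 of the 9 genes were higher and none was lower. Itga2b rose 4.14-fold, Selp 3.55-fold, F2rl2 3.03-fold and Vwf 2.72-fold (edgeR quasi-likelihood test, adjusted p from 0.00523 to 0.0452). At an unadjusted p under 0.05 again 4 were higher and 0 lower, against 13.1% of all genes tested higher and 11.4% lower, and DESeq2 also gave 4 higher and 0 lower. Pf4, Gp9 and Treml1 did not pass the test, Gp1bb had at most 9 counts in any library, and Gp6 had no read in any. Over all 14140 genes tested, 3.77% were called higher and 3.01% lower in KO. The 4 calls were not equally firm. With 1 WT library removed, whichever it was, only Itga2b still passed, and Vwf also depended on KO replicate 2. In sorted bulk cells a larger share of cells that carry a transcript cannot be told apart from more of that transcript per cell.

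The integrin subunit encoded by Itga2b pairs with the beta subunit from Itgb3 to form the platelet fibrinogen receptor, and its surface protein, CD41, also marks some stem cells and megakaryocyte progenitors. Gp9 and Gp1bb encode subunits of the glycoprotein Ib-IX-V complex, which binds von Willebrand factor, the product of Vwf. Gp6 is the platelet receptor for collagen. F2rl2 encodes protease-activated receptor PAR3, which in mouse platelets helps thrombin cleave the receptor encoded by F2rl3. Selp encodes P-selectin, a granule membrane protein that binds leukocytes once it reaches the surface. Pf4 is a chemokine packed into alpha granules, and Treml1 encodes an alpha granule receptor that supports platelet aggregation.

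Library totals ranged from 17787425 to 22000036 counts in KO and from 25813391 to 29863594 counts in WT. Zfp521 itself had 308 and 215 counts in KO replicates 1 and 2, against 1561 and 1429 in WT replicates 1 and 2. Among markers that define the sort, Kit was at 697 and 702 CPM in KO and at 617 and 708 CPM in WT, where CPM is the usual counts-per-million unit after TMM scaling of the libraries. Ly6a, which encodes Sca-1, was at 37.3 and 67.0 CPM in KO and at 47.7 and 36.9 CPM in WT. Of 5 markers of LSK cells and their subsets, Cd34 was lower in KO. It was at 369 and 282 CPM in KO against 499 and 495 CPM in WT (log2 fold change -0.61, adjusted p = 0.0408). At an unadjusted p under 0.05, 1 of the 5 was higher and 2 were lower, beside 13.1% and 11.4% of all genes tested. With no filter 2 were lower, and with the replicate number as a block 1 was higher and 2 were lower. No such marker was called with WT replicate 1, WT replicate 2 or KO replicate 2 removed, or with upper quartile factors. WT replicate 2 stood apart in the X-inactivation RNA Xist, with 606 counts against at least 160613 in each other library. The labels do not give the sex of the animals, and the part of sex in the comparison of KO with WT was not tested. KO replicate 2 stood apart in the ribosomal RNA precursor Rn45s, which took 9.37% of its counts against 14.6% to 15.7% in the others.

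The 9 genes lie on 8 chromosomes of the mm10 build, and GENCODE lists each as protein coding. Itga2b spans chromosome 11 from 102453297 to 102470122 on the minus strand, with 28 merged exons. Vwf, with 56 merged exons, spans chromosome 6 from 125546774 to 125686679 on the plus strand, and Gp9 lies on the same chromosome from 87778072 to 87779768, also on the plus strand. Selp spans chromosome 1 from 164115264 to 164150026 on the plus strand. On the opposite strand, 438 of its exon bases overlap the long noncoding RNA gene Gm16548, and 186 overlap the antisense gene Gm16587. Gm16548 had 16 and 5 counts in KO and 3 and 6 in WT. F2rl2 spans chromosome 13 from 95696853 to 95702739 on the plus strand, and lies wholly inside Iqgap2, which is transcribed from the opposite strand and shares no exon with it. Pf4 spans chromosome 5 from 90772435 to 90773383 and Treml1 chromosome 17 from 48359916 to 48367176, both on the plus strand. Gp6 spans chromosome 7 from 4363965 to 4397744 and Gp1bb chromosome 16 from 18620317 to 18622403, both on the minus strand. Of the 2087 exon bases of Gp1bb, 1902 are shared with exons of Sept5 on the same strand, so reads there have no single owner.

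Sequences upstream of the RefSeq start are shown for 3 of the genes that rose and for Pf4 and Gp9, which were tested and did not pass. They come from RefSeq on GRCm38.p6, which lists 8 of the 9 genes, and end just before the RefSeq start of transcription, except that of F2rl2. The sequence of F2rl2 ends 68 bases before that start, where GENCODE already annotates untranslated sequence. That of Itga2b lies mostly inside the gene as GENCODE draws it, which starts farther upstream, with 239 of its 250 bases inside the gene and 180 in annotated exons. Each is written 5′ to 3′ on the gene's own strand, and capitals mark matches, on either strand, to GATA motifs (AGATAA or TGATAA) and ETS motifs (AGGAAG or CGGAAG), the motifs of factor families known to act in megakaryocytes.
Itga2b, chr11:102469884-102470133, minus strand: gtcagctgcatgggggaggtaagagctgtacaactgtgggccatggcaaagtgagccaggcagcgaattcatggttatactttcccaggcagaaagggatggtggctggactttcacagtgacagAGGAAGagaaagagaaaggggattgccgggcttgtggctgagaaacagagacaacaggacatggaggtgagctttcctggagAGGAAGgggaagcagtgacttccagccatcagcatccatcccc
F2rl2, chr13:95696670-95696852, plus strand: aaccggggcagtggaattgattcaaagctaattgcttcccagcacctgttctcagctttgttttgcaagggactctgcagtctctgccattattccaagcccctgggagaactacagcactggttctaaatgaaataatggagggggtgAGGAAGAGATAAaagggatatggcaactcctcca
Selp, chr1:164115014-164115263, plus strand: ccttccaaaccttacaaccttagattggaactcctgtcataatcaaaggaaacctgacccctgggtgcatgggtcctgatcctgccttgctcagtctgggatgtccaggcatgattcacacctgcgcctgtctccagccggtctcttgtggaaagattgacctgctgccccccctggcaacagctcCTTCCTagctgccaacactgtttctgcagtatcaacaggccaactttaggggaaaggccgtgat
Pf4, chr5:90772185-90772434, plus strand: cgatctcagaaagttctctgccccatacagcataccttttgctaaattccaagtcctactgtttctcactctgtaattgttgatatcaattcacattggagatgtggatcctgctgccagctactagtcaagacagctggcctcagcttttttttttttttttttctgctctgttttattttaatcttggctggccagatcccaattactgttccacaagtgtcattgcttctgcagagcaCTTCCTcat
Gp9, chr6:87777820-87778069, plus strand: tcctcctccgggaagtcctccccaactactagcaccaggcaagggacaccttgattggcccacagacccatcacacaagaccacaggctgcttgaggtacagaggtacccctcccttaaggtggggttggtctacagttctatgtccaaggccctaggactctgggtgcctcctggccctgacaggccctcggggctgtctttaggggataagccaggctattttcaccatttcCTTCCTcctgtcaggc
All 5 hold at least 1 ETS match, and so do 39.2% of the 32851 upstream stretches of 250 bases in the table. Only F2rl2 among these 5 holds a GATA match, which directly adjoins its ETS match, and 16.6% of all stretches hold one. Of the listed genes not shown, Gp1bb holds an ETS match, Gp6 holds a GATA match but no ETS match, and Treml1 holds neither. The matches are descriptions of these letters and do not separate the genes that rose from those that did not.

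Itga2b had 584 and 505 counts in KO replicates 1 and 2, against 132 and 195 in WT replicates 1 and 2. That is 26.4 and 25.7 CPM in KO and 4.74 and 7.85 CPM in WT, so both KO libraries lay more than 3-fold above the higher WT library. The log2 fold change, KO over WT, was 2.05 (SE 0.33, adjusted p = 0.00523). It lay between 1.72 and 2.44 with each library left out in turn, and passed each time (adjusted p from 0.000644 to 0.0423).

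Of the other surface glycoprotein genes, Gp9 was tested and did not pass, and Gp1bb and Gp6 fell below the filter on low counts. Gp9 reached 29.7 CPM in the first KO library and 13.8 CPM in the second, with 15.8 and 14.2 CPM in WT. One KO library was thus high and the other lay just under both WT libraries. Its log2 fold change was 0.54 (SE 0.35, adjusted p = 0.372), but -0.13 without KO replicate 1 and 0.98 without KO replicate 2 (adjusted p = 0.841 and 0.0660). Gp1bb had 4 and 9 counts in KO and 6 and 1 counts in WT, and most of its exon bases are shared with Sept5. With no filter its log2 fold change was 1.25 (SE 2.04, adjusted p = 0.765). Gp6 had 0 counts in each library, which allows up to 0.136 and 0.152 CPM in KO and 0.108 and 0.121 CPM in WT (3 counts per library, counting error only).

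The thrombin receptor gene F2rl2 was at 22.5 and 20.7 CPM in KO (498 and 407 counts), against 6.14 and 8.13 CPM in WT (171 and 202 counts). The groups did not overlap, and the log2 fold change was 1.60 (SE 0.31, adjusted p = 0.0137). F2rl2 failed to pass with WT replicate 1 left out (1.40, adjusted p = 0.132) and only just failed with WT replicate 2 left out (1.80, adjusted p = 0.0503). The surrounding gene Iqgap2 was at 429 and 462 CPM in KO and 367 and 389 CPM in WT (log2 fold change 0.24, adjusted p = 0.306). The strand setting of the counting is not given, so reads from unspliced Iqgap2 RNA over F2rl2 exons cannot be told apart from F2rl2 reads.

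Among granule genes, Selp and Vwf were higher in KO. Selp was at 9.27 and 8.64 CPM in KO (205 and 170 counts), against 1.90 and 3.14 CPM in WT (53 and 78 counts). Its log2 fold change was 1.83 (SE 0.46, adjusted p = 0.0382), and it failed to pass with WT replicate 1 left out (1.51, adjusted p = 0.267) or with WT replicate 2 left out (2.21, adjusted p = 0.0824). Vwf was at 9.95 and 15.1 CPM in KO (220 and 298 counts), against 4.27 and 4.95 CPM in WT (119 and 123 counts). KO replicate 2 was the higher of the KO libraries for Vwf, the reverse of Pf4 and Gp9. Its log2 fold change was 1.44 (SE 0.38, adjusted p = 0.0452), close to the threshold, and it passed without KO replicate 1 (1.71, adjusted p = 0.00775). Vwf did not pass without KO replicate 2 (1.10, adjusted p = 0.145), WT replicate 1 (1.33, adjusted p = 0.270) or WT replicate 2 (1.54, adjusted p = 0.159).

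The chemokine gene Pf4 reached 12.7 CPM in KO replicate 1, and KO replicate 2 held 5.54 CPM, with 5.75 and 5.15 CPM in WT. KO replicate 2 lay between the WT libraries, as Gp9 nearly did, and only KO replicate 1 was high. The log2 fold change was 0.74 (SE 0.45, adjusted p = 0.332), 0.016 without KO replicate 1 and 1.21 without KO replicate 2 (adjusted p = 0.0685). Treml1 had 15 and 8 counts in KO and 5 and 30 counts in WT. The WT libraries lay on either side of both KO libraries, and the fitted log2 fold change of -0.34 had an SE of 1.10 (adjusted p = 0.883).

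**Figure D1:**
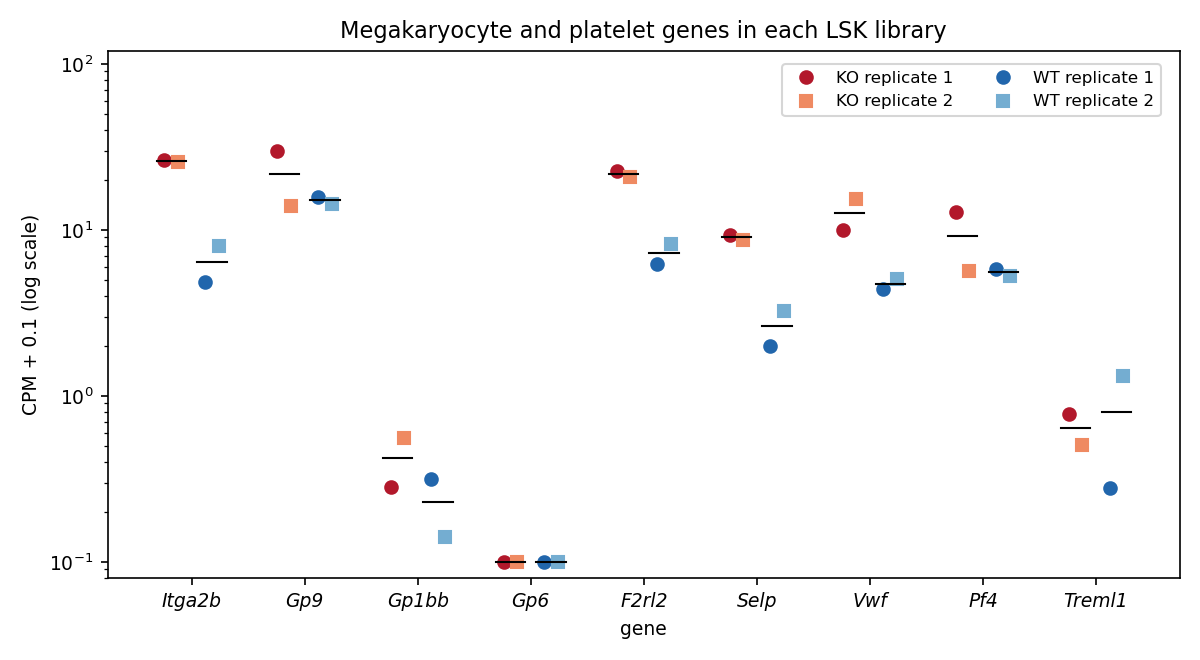
CPM plus 0.1 on a log axis for each of the 9 genes, with 1 point per library, KO left of WT, and a black line at each group's mean (n = 2 each). Itga2b, F2rl2, Selp and Vwf have both KO points above both WT points, while for Gp9 and Pf4 KO replicate 1 alone is high, at 29.7 and 12.7 CPM.

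Both KO libraries lay above both WT libraries for 4 of the 7 tested genes, the same 4 that passed, and for 28.8% of all genes tested. The median log2 fold change of the 7 was 1.44, against 0.015 over all genes tested. The genes were chosen with earlier results of these data known, so neither value is evidence about platelet genes in general. Apart from Treml1, each tested gene had at least 53 counts in every library, so none passed the filter on low counts through 1 group alone. Summed over all 9, the level was 111 and 90.3 CPM in KO and 39.0 and 44.7 CPM in WT. With 2 libraries against 2, an exact permutation test of such a sum cannot pass, and none was run.

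Levels of different genes were compared per kilobase of merged exon, since CPM grows with transcript length. In KO the order was Gp9 at 24.7 ± 12.8, Pf4 at 12.7 ± 7.03, F2rl2 at 8.63 ± 0.519, Itga2b at 4.77 ± 0.0967, Selp at 2.03 ± 0.101, Vwf at 0.781 ± 0.229, Treml1 at 0.387 ± 0.137, Gp1bb at 0.153 ± 0.0937 and Gp6 at 0 CPM per kilobase (SD, n = 2 each). In WT it began with Gp9 at 17.0 ± 1.25, Pf4 at 7.56 ± 0.583, F2rl2 at 2.85 ± 0.562, Itga2b at 1.15 ± 0.403 and Selp at 0.572 ± 0.198. Treml1 at 0.495 ± 0.519 and Vwf at 0.287 ± 0.0298 came next, then Gp1bb at 0.0613 ± 0.0594. The KO values of Gp9 and Pf4 overlapped between libraries, as did those of Pf4 and F2rl2. In WT, Treml1 could not be placed against Selp or Vwf, since its libraries spanned 0.128 to 0.861 CPM per kilobase. By mean level per length the short genes Gp9 and Pf4, which did not pass the test, led in both groups, although in KO replicate 2 F2rl2 lay above Pf4, at 8.27 and 7.68 CPM per kilobase.

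The other genes of the platelet program were described from 6 lists with 99 genes in all, of which 94 were tested. In KO 10 of these were higher and none was lower, beside 3.77% and 3.01% of all genes tested. The median log2 fold change was 0.13. DESeq2 gave 13 higher and 0 lower, and edgeR with no filter 14 higher and 1 lower. At an unadjusted p under 0.05, 22 were higher and 0 lower, beside the 13.1% and 11.4% of all genes tested. Of the 10 called genes, Slc6a4 had 11 and 6 WT counts and Cd226 had 8 and 2. Both passed the filter on low counts through the KO libraries alone, so the direction of these calls was set by that filter. Removing WT replicate 1 left 4 higher, and so did removing WT replicate 2, while removing KO replicate 1 gave 12 higher and 3 lower and removing KO replicate 2 gave 13 higher.

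Partners of the surface receptors held 3 of the higher genes, among 14 tested of 16, with a median log2 fold change of 0.48. Itgb3, whose product joins that of Itga2b, was at 18.0 and 51.0 CPM in KO and at 10.02 and 9.10 CPM in WT (1.85, adjusted p = 0.0241). Both KO libraries were above WT, but by very different amounts, and without KO replicate 2 the log2 fold change was 0.90 (adjusted p = 0.135). Itga2, a subunit of a collagen-binding integrin, rose by 1.60 on the log2 scale (adjusted p = 0.0288). Cd226, an adhesion receptor of platelets and lymphoid cells, was at 2.22 and 4.06 CPM in KO and at 0.287 and 0.0805 CPM in WT. Its log2 fold change of 4.04 (adjusted p = 0.0297) rests on 8 and 2 WT counts, and lay between 3.41 with WT replicate 2 removed and 5.18 with WT replicate 1 removed. Itgb3, Itga2 and Cd226 no longer passed when WT replicate 1, WT replicate 2 or KO replicate 2 was left out.

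Cd36, a receptor for thrombospondin and fatty acids, was at 14.4 and 9.50 CPM in KO and 3.48 and 6.60 CPM in WT, a log2 fold change of 1.25 that did not pass (adjusted p = 0.0972) but did with KO replicate 2 removed (1.51, adjusted p = 0.0286). Gp5 and Gp1ba belong to the same complex as Gp9. Gp5 was at 4.11 and 3.81 CPM in KO and 1.15 and 1.77 CPM in WT (log2 fold change 1.44, adjusted p = 0.179). Gp1ba was at 14.8 and 5.89 CPM in KO and 4.99 and 7.08 CPM in WT (0.78, adjusted p = 0.322). It had the library pattern of Gp9 and Pf4, with KO replicate 1 high and KO replicate 2 within the WT range; Gp5 and Gp1ba are named after their values were seen.

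**Figure D2:**
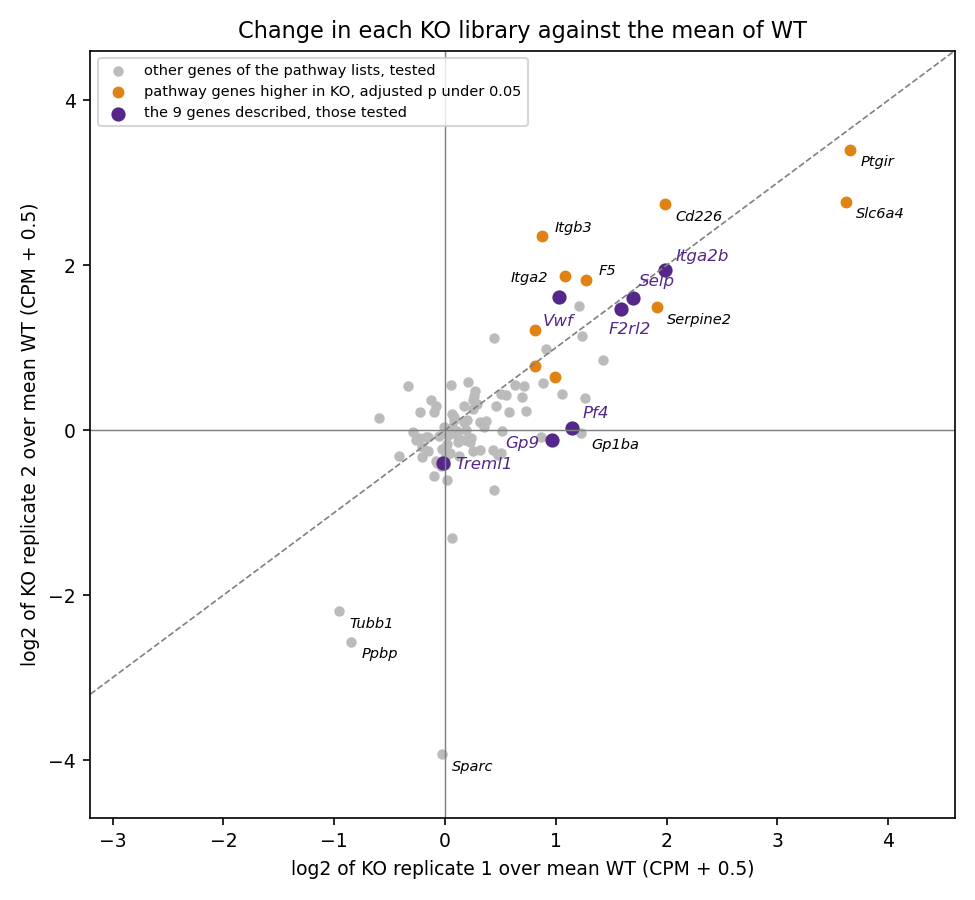
Log2 ratio of KO replicate 1 (horizontal) and of KO replicate 2 (vertical) over the mean of WT, at CPM plus 0.5, for tested genes of the platelet program; the dashed line marks equal change in both KO libraries. Itga2b, Selp and F2rl2 lie near the line, while Pf4, Gp9 and Gp1ba lie near 0 for KO replicate 2.

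Of 8 tested genes of 10 listed for platelet receptors of soluble agonists, which are G protein coupled apart from the ion channel of P2rx1, Ptgir was higher and none lower, with a median of 0.026. Ptgir, which encodes the receptor for prostacyclin, an inhibitor of platelet aggregation, had 343 and 254 counts in KO and 26 and 15 in WT. At 15.5 and 12.9 CPM in KO and 0.934 and 0.604 CPM in WT, its log2 fold change was 4.19 (SE 0.46, adjusted p = 0.000533), and it passed with each library left out. F2r, P2ry1 and P2rx1, receptors for thrombin and nucleotides, had log2 fold changes of -0.15, 0.18 and 0.14 (adjusted p from 0.686 to 0.832). F2rl3, the thrombin receptor that works beside PAR3, was at 28.2 and 27.4 CPM in KO and 29.2 and 26.4 CPM in WT (-0.0025, SE 0.23, adjusted p = 0.997); it is named after its values were seen.

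None of the 20 genes that carry signals from these receptors passed in either direction in the main edgeR test. Their median was -0.040, and 3 were higher at an unadjusted p under 0.05, beside 13.1% of all genes tested. With upper quartile factors, no filter, the likelihood ratio test or the replicate number as a block, edgeR called 1 higher. The smallest p was that of Plcg2, a phospholipase downstream of Gp6 (log2 fold change 0.49, adjusted p = 0.0652), which passed in DESeq2 (adjusted p = 0.0289) and with KO replicate 2 removed (adjusted p = 0.0463). Next came Itpr1, a calcium channel of internal stores (0.41), the G protein subunit gene Gnaq (0.38) and Fermt3 (0.31), whose product activates integrins (adjusted p from 0.168 to 0.244). Itpr1 passed with KO replicate 1 removed (0.57, adjusted p = 0.0297), when 2 genes of this list were higher. Of 17 tested genes among 18 for transcription factors and cytokine signalling, none passed in the main edgeR test or in DESeq2. Their median was 0.10, and 2 were higher at an unadjusted p under 0.05, beside 13.1% of all genes tested. With the replicate number as a block 1 was higher. With no filter 1 was higher, and with KO replicate 2 removed 2 were. Gata2, a transcription factor of stem cells and early progenitors (0.51, adjusted p = 0.108), Jak2, a kinase of cytokine receptors (0.35, adjusted p = 0.220), and Lmo2, a partner of blood transcription factors (-0.26, adjusted p = 0.259), did not pass. Gata2 did pass with no filter (0.49, adjusted p = 0.0381) and with KO replicate 2 removed (0.73, adjusted p = 0.00791).

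Granule genes gave 5 of the 10 calls, among 20 tested, with a median of 0.37. F5, which encodes coagulation factor V, was at 39.3 and 57.9 CPM in KO and 18.2 and 13.7 CPM in WT (1.60, adjusted p = 0.00682). Serpine2, an inhibitor of thrombin and other serine proteases, rose by 1.94 on the log2 scale (adjusted p = 0.0344). Slc6a4, the serotonin transporter that fills platelets with serotonin, was at 9.54 and 5.08 CPM in KO and 0.395 and 0.242 CPM in WT. Its log2 fold change was 4.49 (SE 0.67, adjusted p = 0.00351), and lay between 3.96 and 4.88 with each library left out. The value rests on 11 and 6 WT counts. Slc6a4 passed the filter on low counts through the KO libraries alone, so the direction of its call was set by that filter. Nbeal2 (0.80, adjusted p = 0.0166) and Lyst (1.03, adjusted p = 0.00612), related genes needed for forming granules, were higher as well. Once WT replicate 2 was removed F5 and Lyst no longer passed (adjusted p = 0.0607 and 0.0625), and Nbeal2 no longer did once WT replicate 1 was removed (adjusted p = 0.235). Serpine2 did not pass without either WT library or without KO replicate 1 (adjusted p from 0.0679 to 0.172).

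Of 15 genes of the cytoskeleton, platelet formation and eicosanoid synthesis, Plek passed, with a list median of 0.12. Plek encodes pleckstrin, a kinase substrate of platelets and leukocytes, and was at 333 and 262 CPM in KO and 152 and 183 CPM in WT (0.83, adjusted p = 0.0166). Removing WT replicate 1 (0.70, adjusted p = 0.194) or WT replicate 2 (0.95, adjusted p = 0.0645) ended this call. Tubb1, the tubulin of platelets, was at 1.04 and 0.152 CPM in KO and 0.898 and 4.07 CPM in WT (-2.03, adjusted p = 0.255). Tbxas1, thromboxane synthase (0.59, adjusted p = 0.0809), and Cttn, an actin-binding protein (0.93, adjusted p = 0.135), did not pass. DESeq2 called Tbxas1 (adjusted p = 0.0449), and Cttn passed with KO replicate 2 removed (1.29, adjusted p = 0.0217). Ppbp, a platelet chemokine gene of the same cluster as Pf4 and chosen after its values were seen, had 29 and 1 counts in KO and 83 and 63 in WT (-1.99, SE 1.03, adjusted p = 0.259).

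**Figure D3:**
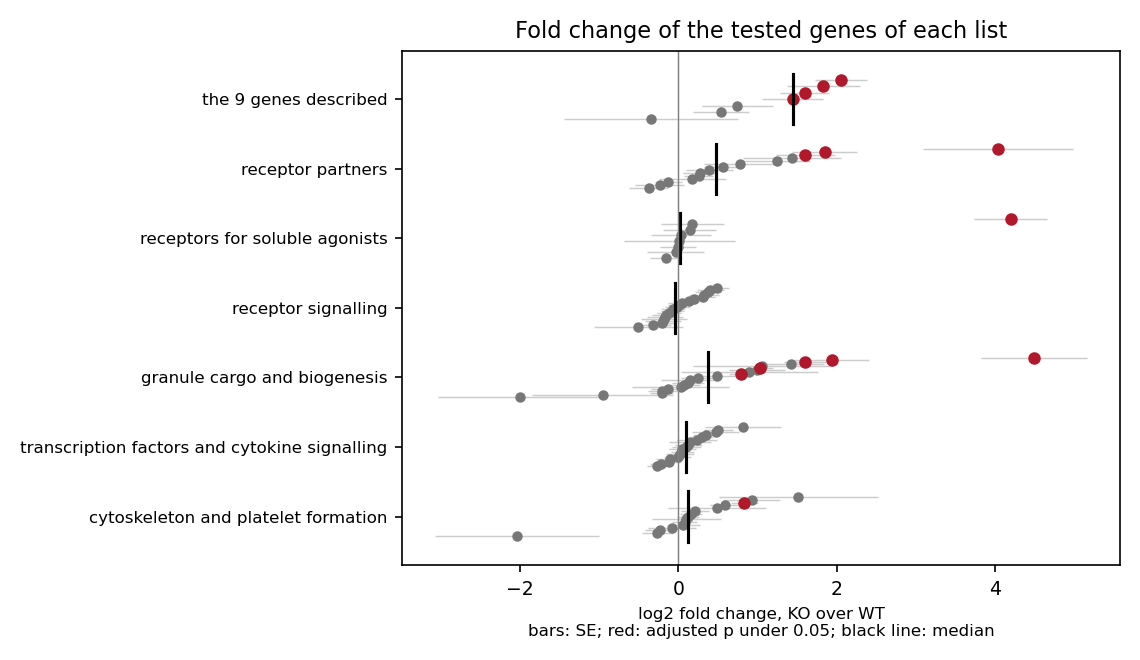
Log2 fold change, KO over WT, of each tested gene among the 9 described and in the 6 lists of the platelet program, with SE bars, red points past an adjusted p of 0.05 and a black line at each list's median. The medians run from -0.040 for receptor signalling to 0.48 for receptor partners, beside 1.44 for the 9 genes.

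Several of these genes are also transcribed outside the megakaryocyte lineage, so markers of other cells were read beside them. Over all genes tested, 3.77% were called higher in KO and 3.01% lower. The list of mast cells and basophils had 8 of its 12 markers higher in KO, and their summed level was 348 and 332 CPM in KO and 72.0 and 75.6 CPM in WT. Of 12 tested erythroid markers among 16, 4 were higher, with sums of 2140 and 1344 CPM in KO and 898 and 1316 CPM in WT, while Hba-a1 and Hbb-bt had no read, genes whose near-identical copies make their counts uncertain. Removing WT replicate 1 left 1 erythroid marker called, removing WT replicate 2 gave 7 and removing KO replicate 2 gave 8. Of 11 neutrophil markers 6 were higher, with sums of 1104 and 857 CPM in KO and 411 and 575 CPM in WT. The neutrophil count was 1 with WT replicate 1 removed, 4 with WT replicate 2 removed and 3 with KO replicate 1 removed. Of 12 monocyte and macrophage markers 3 were higher, with sums of 681 and 594 CPM in KO and 443 and 478 CPM in WT, and 1 was higher with either WT library removed. Of 11 B lineage markers 9 were lower, with sums of 119 and 89.6 CPM in KO and 507 and 594 CPM in WT. The part of these changes in the rise of Itga2b, F2rl2, Selp and Vwf was not tested.

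Endothelial cells also store von Willebrand factor and P-selectin. None of 11 tested endothelial markers among 13 passed in the main edgeR test, and the sums were 140 and 158 CPM in KO and 124 and 150 CPM in WT. With no filter, the likelihood ratio test or the replicate number as a block, edgeR called 1 higher and 1 lower. At an unadjusted p under 0.05, 1 was higher and 2 lower, DESeq2 called 1 higher, and removing KO replicate 2 gave 1 higher and 1 lower. Of the 11 tested, 7 had a positive log2 fold change, with a list median of 0.10. Cdh5 and Kdr are named after their values were seen, and they do not stand for the list, whose median was positive. Cdh5 was at 1.54 and 0.457 CPM in KO against 1.19 and 4.63 CPM in WT. Kdr was at 0.317 and 0.305 CPM in KO against 0.970 and 3.86 CPM in WT. The part of endothelial cells in the Vwf and Selp reads was not tested. Vwf and Selp are also expressed in stem cells. Of 14 stem cell markers Sult1a1 passed (log2 fold change 2.26, adjusted p = 0.00856), and none passed with WT replicate 2 removed, against 2 with KO replicate 1 removed. The summed level of stem cell markers was 2269 and 2064 CPM in KO and 1930 and 2082 CPM in WT. Of 12 other megakaryocyte markers 10 were tested and Itgb3 and Plek were higher; Clec1b and G6b fell below the filter on low counts, with at most 16 counts in a library.

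**Figure D4:**
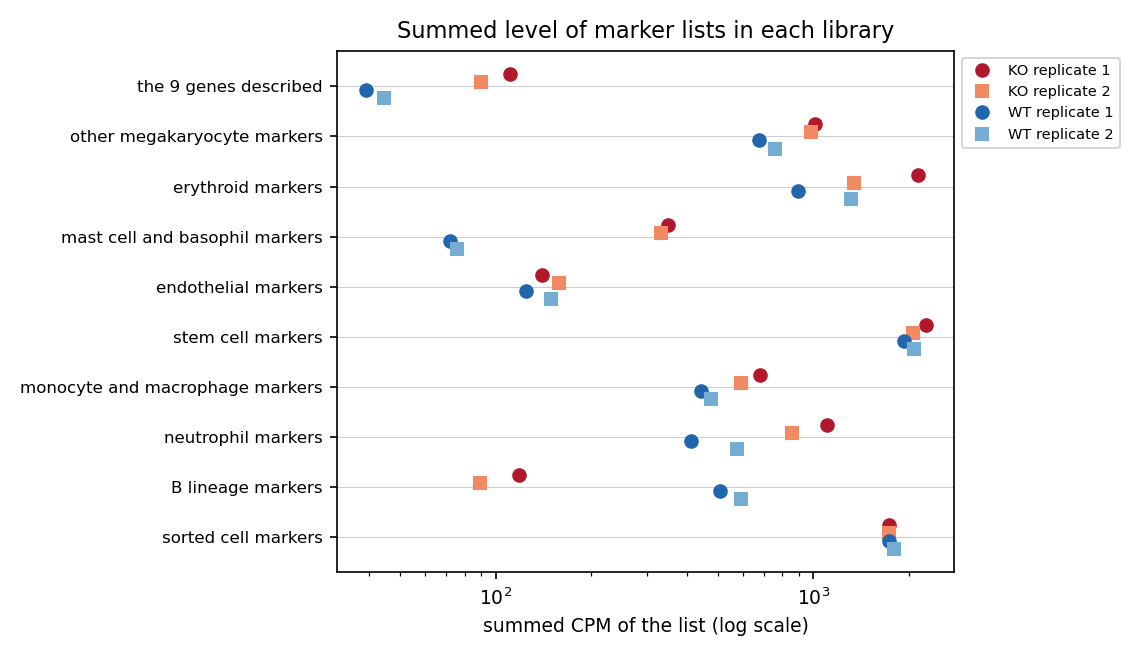
Summed CPM, on a log axis, of the 9 genes and of marker lists of other cell types, with 1 point per library, KO above WT. The 9 genes sum to 111 and 90.3 CPM in KO and 39.0 and 44.7 CPM in WT, and mast cell and basophil markers move further, while markers of the sorted cells sum to 1736 and 1733 CPM in KO and 1734 and 1793 CPM in WT.

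KO replicate 1 and KO replicate 2 differed by a log2 ratio of 1.13 for Pf4, 1.08 for Gp9 and -0.58 for Vwf (at CPM plus 0.5), against 0.041 for Itga2b, 0.096 for Selp and 0.12 for F2rl2. The same ratio had a median of 1.02 over mast cell and basophil markers, 0.46 over erythroid markers and 0.0068 over all genes tested. Whether these differences between the KO libraries share a source was not tested.

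The genes outside the 9 whose level over the 4 libraries lay nearest to the mean pattern of the 7 tested genes were Cacna2d4, Khk, Slc27a2, Il10ra, Tns1 and Hist3h2a, among 11352 genes compared. Likeness was the Euclidean distance between log2 profiles, each centred on its own mean, and lay between 0.0901 and 0.160 for these 6. Tns1, for example, was at 524 and 479 CPM in KO and 214 and 278 CPM in WT. The 7 genes themselves lay farther from their own mean, from 0.495 for F2rl2 to 1.31 for Treml1, and 329 genes outside the set were nearer to it than F2rl2. With 4 libraries such likeness is a description only.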

How the data were processed

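Raw read counts per gene symbol were used as the authors deposited them, for 4 libraries. Per the submitters' processing notes the build was mm10 and the tools included HTSeq 0.8.0 and TopHat2 2.1.1, with Picard 2.9.4 and SAMtools 1.5; the annotation, strand setting and treatment of duplicates were not given in the sources used here. Counts were tested with edgeR 4.0.16 under R 4.3.3 (filterByExpr with minimum count 10 and total 15, TMM factors, quasi-likelihood test of KO against WT, no covariate), with Benjamini-Hochberg adjustment over all 14140 genes tested and a threshold of 0.05. The SE is the absolute log2 fold change divided by the square root of F. The steps were tested on simulated data with 14222 genes tested. Of 100 genes changed 2-fold 12 were recovered, and of 100 changed 4-fold 88 were, with 7 false calls. A gene that did not pass may thus still have changed. Named are the 9 genes, every called member of each platelet list and, below 4 calls, those of smallest p up to 4; further genes are marked, and 1 gene is not reported here. The genes and lists were chosen with earlier results of these data known. Positions and exon lengths come from GENCODE M21 (GRCm38, the same build). Alternatives were DESeq2 1.42.0, RLE and upper quartile factors, 2 other filters, a likelihood ratio test, the replicate number as a block, and each library left out.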

Additional observations from a re-analysis of the deposited data

How the results depend on the processing

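Itga2b, F2rl2, Selp and Vwf were called higher under all 7 alternatives that kept every library, and no gene of the 9 was called lower under any. With each library left out, between 1 and 4 of the 9 were higher. Genes called over the whole table numbered 533 higher and 425 lower, against 878 and 792 with DESeq2, 1056 and 987 with no filter, 1312 and 1314 with the replicate number as a block, 1060 and 778 with the likelihood ratio test, and 160 to 997 higher and 95 to 1161 lower with each library left out. With the block, the 94 tested genes of the platelet lists gave 17 higher and 2 lower, with Gata2, Cd36, Plcg2, Tbxas1 and Cttn called higher, and erythroid markers gave 10; with no filter erythroid markers gave 9. Upper quartile factors gave 664 higher and 289 lower, so 69.7% of calls were higher against 55.6%; leaving out WT replicate 2 gave 68.5% and leaving out KO replicate 1 gave 46.2%. The log2 fold change changed sign for Treml1 with the block (0.079). It also changed sign with 1 library left out for Gp9 (range -0.13 to 0.98, negative without KO replicate 1), Treml1 (-1.15 to 1.55, positive without WT replicate 2), P2ry1 (-0.30 to 0.59, negative at -0.30 without KO replicate 1 and at -0.16 without WT replicate 2) and P2rx1 (-0.14 to 0.37, negative without KO replicate 2). None of these genes passed in either direction, and the cause was not tested. The labels do not say that equal numbers pair the libraries, and the deviations of same-numbered libraries from their group means had a correlation of 0.095 across genes. Leaving out a library also leaves 1 library in a group, whose spread is then assumed to match the other group's. Genes of few counts, such as Gp1bb, fell below the filter, and the SE of 2.04 for Gp1bb with no filter shows what these depths allow.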
